A study of Mus musculus with 2 samples.

Results

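The genes described here are the mouse histone genes, the protein-coding genes whose symbols begin with H1f, H2ac, H2bc, H3c, H4c, H2az, H2ax, H2aj or H3f3. The rule found 74 of the 21883 protein-coding genes on the assembled chromosomes. Of these, 63 had another member within 100 kb and were called clustered, and 11 stood apart and were called single-copy. A gene was called marked when an interval of enriched ARID4B ChIP-seq signal touched its gene record or the 1 kb either side of it, on mouse build GRCm38. The rule itself uses symbols and positions only, but it was proposed with earlier results of these data known.

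The intervals came from 1 ChIP library of testes of wild type mice at postnatal day 1.5, on a hybrid background of C57BL6/J and 129/SvEv, for which 108 testes were pooled. Input DNA of the same kind of testes gave 1 further library, the only control, and the genotype, strain and age were the same in both. ARID4B is a chromatin protein found with SIN3 and histone deacetylases in a corepressor complex, and was precipitated here with an anti-ARID4B antibody from Bethyl Laboratories. With 1 library a group nothing below has a replicate or a test between groups, and the share of the signal that depends on ARID4B was not tested. The authors deposited 6632 intervals with a median width of 1084 bp. Each carries a score of theirs between 70.02 and 1760.61 with a median of 124.98, used here only to rank intervals within the list. Read depth is unknown. Whole testes were used, so no interval can be given to germ cells, Sertoli cells or another cell type, and an interval does not show whether a gene was expressed.

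Histones package DNA into nucleosomes. The replication-dependent genes lie in clusters of near-identical copies, mostly lack introns, are transcribed in S phase, and give messages that end in a stem-loop in place of a poly(A) tail. Replacement variants such as H3.3, H2A.Z and the linker histone H1.0 are encoded by genes outside the clusters, are made through the cell cycle and in resting cells, and mostly give polyadenylated messages. Germ cells add variants of their own, among them the testis forms of H2A and H2B encoded by H2ac1 and H2bc1 and the linker histone H1t encoded by H1f6.

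The promoters of 4 pairs of related genes are shown because the results below turn on them. They are the linker histone genes with the best scores (H1f0 and H1f10), both genes of the H3.3 protein (H3f3a and H3f3b), the H2A.Z genes, of which only H2az1 had an interval, and a pair of clustered linker histone genes, of which H1f5 had an interval and H1f4 had none. Each is the RefSeq window of 300 bases on GRCm38.p6, from 250 before to 50 after the start of transcription. Capitals mark the CCAAT word, the TATA box TATAAA, the octamer ATTTGCAT of H2B promoters, the H1 box AAACACA and the E2F-like words TTTCGCGC and TTTGGCGC, on either strand.
H1f0, chr15:79027962-79028261, plus strand: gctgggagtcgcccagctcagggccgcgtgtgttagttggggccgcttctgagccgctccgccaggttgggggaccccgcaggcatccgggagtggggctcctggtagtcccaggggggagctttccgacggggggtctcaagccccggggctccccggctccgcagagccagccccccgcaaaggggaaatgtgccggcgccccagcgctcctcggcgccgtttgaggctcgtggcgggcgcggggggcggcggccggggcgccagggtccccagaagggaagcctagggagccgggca
H1f10, chr6:87981433-87981732, minus strand: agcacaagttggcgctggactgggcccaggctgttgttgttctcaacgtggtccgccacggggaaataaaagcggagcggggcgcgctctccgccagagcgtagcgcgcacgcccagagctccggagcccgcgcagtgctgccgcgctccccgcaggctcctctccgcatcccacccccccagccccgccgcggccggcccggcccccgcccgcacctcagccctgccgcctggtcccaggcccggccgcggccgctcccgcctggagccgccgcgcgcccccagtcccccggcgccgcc
H3f3a, chr1:180813556-180813855, minus strand: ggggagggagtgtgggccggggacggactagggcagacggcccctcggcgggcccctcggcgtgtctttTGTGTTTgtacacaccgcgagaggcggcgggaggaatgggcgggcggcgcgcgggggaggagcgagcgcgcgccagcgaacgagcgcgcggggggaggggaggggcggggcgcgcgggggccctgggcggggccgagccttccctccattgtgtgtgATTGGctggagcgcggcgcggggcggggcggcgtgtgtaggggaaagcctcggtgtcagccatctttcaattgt
H3f3b, chr11:116024455-116024754, minus strand: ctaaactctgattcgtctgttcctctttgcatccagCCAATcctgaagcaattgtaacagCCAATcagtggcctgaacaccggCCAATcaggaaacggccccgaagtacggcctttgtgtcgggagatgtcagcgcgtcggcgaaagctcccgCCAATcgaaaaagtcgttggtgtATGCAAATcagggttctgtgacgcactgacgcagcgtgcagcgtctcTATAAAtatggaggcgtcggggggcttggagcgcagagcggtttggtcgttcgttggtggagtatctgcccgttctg
H2az1, chr3:137864237-137864536, plus strand: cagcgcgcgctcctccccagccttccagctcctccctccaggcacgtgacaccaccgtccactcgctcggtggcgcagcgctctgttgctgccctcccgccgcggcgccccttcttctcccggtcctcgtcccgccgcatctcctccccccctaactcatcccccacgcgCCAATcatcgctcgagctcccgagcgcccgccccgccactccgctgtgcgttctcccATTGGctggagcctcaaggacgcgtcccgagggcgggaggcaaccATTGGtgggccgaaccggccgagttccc
H2az2, chr11:6444394-6444693, minus strand: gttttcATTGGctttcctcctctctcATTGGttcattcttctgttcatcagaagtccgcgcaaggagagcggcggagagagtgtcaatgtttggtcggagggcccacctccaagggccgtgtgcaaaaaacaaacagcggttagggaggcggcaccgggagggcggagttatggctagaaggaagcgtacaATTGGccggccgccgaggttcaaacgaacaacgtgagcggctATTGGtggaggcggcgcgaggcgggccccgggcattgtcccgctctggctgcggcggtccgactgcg
H1f5, chr13:21780576-21780875, minus strand: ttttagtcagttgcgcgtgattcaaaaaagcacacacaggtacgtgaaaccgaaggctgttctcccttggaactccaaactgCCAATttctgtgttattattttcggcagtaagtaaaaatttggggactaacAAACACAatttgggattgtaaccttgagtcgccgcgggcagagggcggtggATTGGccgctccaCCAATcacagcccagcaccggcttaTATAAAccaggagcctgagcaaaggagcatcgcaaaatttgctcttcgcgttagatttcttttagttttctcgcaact
H1f4, chr13:23622509-23622808, minus strand: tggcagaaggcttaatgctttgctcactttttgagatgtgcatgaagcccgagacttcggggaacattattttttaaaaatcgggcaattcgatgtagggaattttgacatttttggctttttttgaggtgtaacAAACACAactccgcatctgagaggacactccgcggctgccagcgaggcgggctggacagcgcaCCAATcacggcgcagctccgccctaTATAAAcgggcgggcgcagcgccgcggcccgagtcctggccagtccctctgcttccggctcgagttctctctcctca

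Single-copy variant genes carried ARID4B intervals more often than all genes together, and clustered genes less often. An interval was present at 7 of the 11 single-copy genes (63.6%, 95% Clopper-Pearson interval 30.8 to 89.1%). It was present at 4 of the 63 clustered genes (6.35%, 1.76 to 15.5%), and among all 21883 protein-coding genes at 6708, or 30.7%. Taken as a whole, 11 of the 74 histone genes (14.9%) were marked, through 10 distinct intervals. These bounds cover counting error only, and neighbouring members can share an interval, so the genes are not independent. The 30.7% is not matched for record length or promoter CpG count, which are given below.

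**Figure D1:**
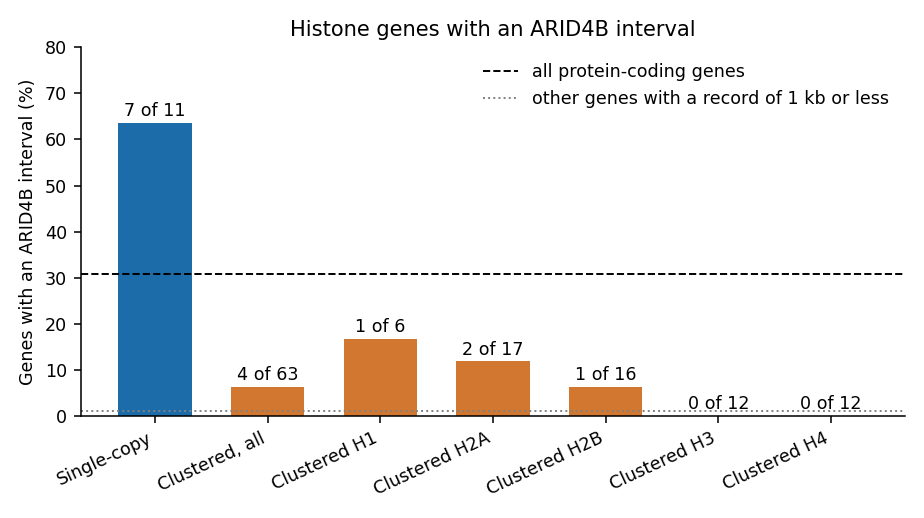
Percent of genes with an ARID4B interval in the record or within 1 kb, for the single-copy histone genes, all clustered histone genes and the clustered genes of each family, with counts above the bars. The dashed line is the share of all protein-coding genes (30.7%) and the dotted line that of other genes with a record of 1 kb or less (1.05%). The single-copy bar (63.6%) stands above the dashed line and each clustered bar below it.

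Record length differed between the groups. The median record was 492 bp for clustered and 2293 bp for single-copy genes, against 17170 bp for all protein-coding genes. Among the 1519 other protein-coding genes with a record of 1 kb or less, 16 (1.05%) were marked. Among the 58 clustered genes of that length 3 (5.17%) were marked, through 2 intervals.

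Of the 4 linker histone genes outside the clusters, 2 had intervals, with the highest and the third-highest score of any member. H1f0 encodes H1.0, the linker histone that accumulates in resting and differentiated cells. Its interval at chr15:79027443-79029561 scored 470.1, rank 147 of 6632, and covered the start of transcription from 769 bp before to 1349 bp after it. A further interval at chr15:79030352-79031399 scored 127.74 and lay at the other end of the record, where it also fell in the window of Gcat, a gene of a mitochondrial enzyme of threonine breakdown. H1f0 was the 1 member with more than 1 interval.

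H1f10, the gene of the replacement linker histone H1.10, had an interval at chr6:87980370-87982461 with a score of 415.7, rank 215. That interval was 2092 bp wide and covered all 1062 bp of the record. The linker histone genes of germ cells, H1f7 of spermatids and H1f8 of oocytes, had none, the nearest intervals lying 87.0 kb and 42.9 kb from their records.

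H2ax, the gene of the variant that is phosphorylated beside DNA double-strand breaks, was the best-scoring H2A gene. Its interval at chr9:44334325-44336031 scored 459.14, rank 158, and covered 96.6% of the record. It also fell in the window of Dpagt1, a gene of N-glycosylation, so it cannot be given to H2ax alone.

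The H2A.Z genes differed from each other. H2az1 had an interval at chr3:137864983-137865982 with a score of 164.9, rank 2038. That interval lay inside the record, from 496 to 1495 bp after the annotated start, and did not reach the start. H2az2, which encodes the closely related H2A.Z.2 protein, had none, the nearest lying 10.2 kb from its record.

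H2aj, the gene of H2A.J, had the weakest interval of any member. It lay at chr6:136807951-136809096 with a score of 71.17, rank 6525 of 6632, close to the lowest score in the list. H4f16, an H4 gene whose symbol falls outside the rule, lies beside H2aj, so H2aj stands apart from other members only.

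H3f3a and H3f3b encode the same protein, the replacement histone H3.3, and both were marked. The interval of H3f3a at chr1:180812946-180814742 scored 227.46, rank 1065, and that of H3f3b at chr11:116023398-116024766 scored 133.32, rank 2978. Each covered an annotated start, the midpoint lying 239 bp before it at H3f3a and 422 bp after it at H3f3b. H3f3c, the other gene of this name, had no interval, the nearest lying 8.69 kb away.

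**Figure D2:**
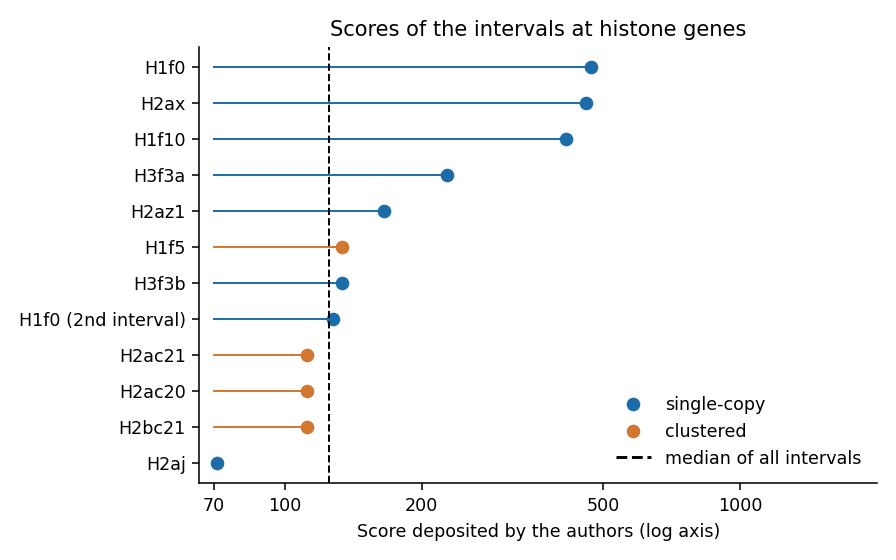
Score deposited by the authors for each interval at a histone gene, on a log axis that begins just below the lowest score of the list, with single-copy genes in blue and clustered genes in orange. The dashed line is the median of all 6632 intervals (124.98). H1f0, H2ax and H1f10 stand apart at 415.7 or more, while H2ac20, H2ac21 and H2bc21 share 1 interval at 111.84.

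Best scores of the marked members ran from 71.17 to 470.1, and those of all marked genes from 70.02 to 1760.61. The best score had a median of 133.6 over the 11 marked members and of 131.8 over all 6708 marked genes, whose quartiles were 96.6 and 197.02. Over the 7 marked single-copy genes the median was 227.46, with H1f0, H2ax, H1f10 and H3f3a above the upper quartile. Scores of the marked clustered genes were 133.6 at H1f5 and 111.84 at the other 3.

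Clustered genes were marked at 2 places. H1f5, a replication-dependent linker histone gene, had an interval at chr13:21779349-21780749 with a score of 133.6, rank 2966, that covered the whole record and the start. The next gene along, H3c11, lay 2.17 kb from this interval and was the nearest unmarked member. The other interval, at chr3:96219597-96220645 (score 111.84, rank 3860), covered all of H2ac21 with its start and 49.8% of H2ac20 without its start. These H2A genes are transcribed towards each other, so the interval lay at the beginning of H2ac21 and the end of H2ac20. H2bc21, an H2B gene, was marked only through its flank, 427 bp from the interval.

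**Figure D3:**
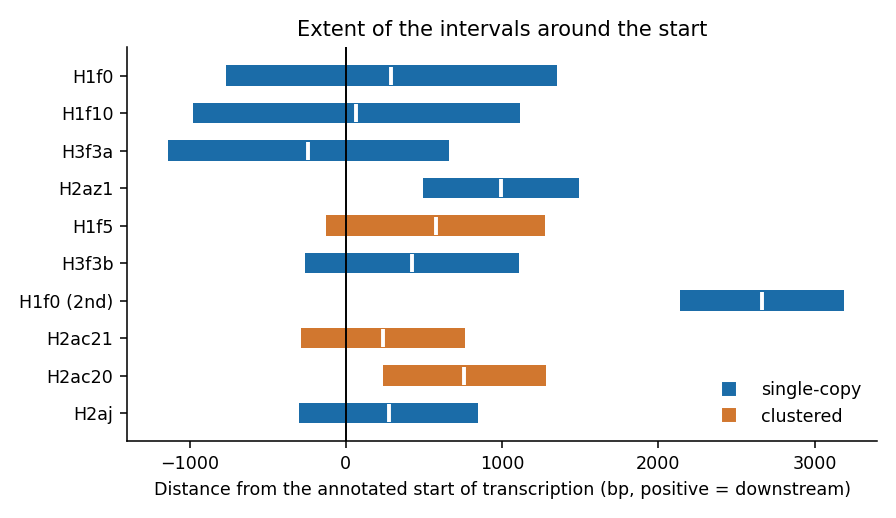
Extent of each interval relative to the annotated start of transcription of the histone gene it marks, in bp with downstream positive, for the genes with a known strand. Single-copy genes are blue, clustered genes are orange, white ticks are midpoints and the black line is the start. Intervals cross the start at H1f0, H1f10, H3f3a, H1f5, H3f3b, H2ac21 and H2aj but not at H2az1 or H2ac20, and the further interval of H1f0 lies over 2 kb downstream.

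No H4 gene and no clustered H3 gene was marked. All 12 H4 members (H4c1, H4c2, H4c3, H4c4, H4c6, H4c8, H4c9, H4c11, H4c12, H4c14, H4c17 and H4c18) and all 12 clustered H3 genes lacked an interval. A count of 0 of 12 allows a share of up to 25% when taken as 3 genes of the total, and of up to 26.5% by Clopper-Pearson. All these records are shorter than 1 kb, and beside the 30.7% of all genes the share of other short genes was 1.05%, so a count of 0 lies near the latter. The 1.05% is not matched for promoter CpG count. H4c1, H3c14 and H3c15 lie in the highest quartile of that count, where 62.4% of all genes were marked. Among clustered genes of the other families 2 of 17 H2A, 1 of 16 H2B and 1 of 6 H1 genes were marked. Over all members the counts were 3 of 10 for H1, 5 of 21 for H2A, 1 of 16 for H2B, 2 of 15 for H3 and 0 of 12 for H4.

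The clusters differed in how far they lay from any interval. The single cluster of chromosome 3, at chr3:96219885-96270192, held 10 genes, of which H2ac20, H2ac21 and H2bc21 were marked. Its unmarked genes H3c15, H2ac19, H2ac18, H3c14, H4c14, H3c13 and H2bc18 lay up to 49.1 kb from the interval. Chromosome 13 held the other 53 clustered genes, in 4 groups more than 100 kb apart. The group at chr13:21715711-21833475 had 17 genes, with H1f5 marked and the other 16 (H2bc13, H2ac13, H3c10, H2bc14, H4c11, H4c12, H2ac15, H2bc15, H3c11, H2ac22, H2bc22, H2bc23, H2ac23, H4c17, H4c18 and H2ac24) up to 63.2 kb from an interval.

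The largest group, of 29 genes over 233 kb at chr13:23531044-23764412, had no interval at all. Its nearest interval was between 516.0 and 749.0 kb away. It holds the linker histone genes H1f1, H1f2, H1f3, H1f4 and H1f6, the H3 genes H3c1, H3c2, H3c3, H3c4, H3c6, H3c7 and H3c8, the H4 genes H4c1, H4c2, H4c3, H4c4, H4c6 and H4c8, the H2A genes H2ac4, H2ac6, H2ac7, H2ac8 and H2ac10, and the H2B genes H2bc3, H2bc4, H2bc6, H2bc7, H2bc8 and H2bc9. The group of H2ac11, H2bc11, H2ac12, H2bc12 and H4c9 lay 254.4 to 262.4 kb from an interval. The testis pair H2bc1 and H2ac1 lay 345.5 kb or more from any. With H1f6, H1f7 and H1f8 this pair makes up the germ-line histone genes among the members, and 0 of these 5 were marked. Records of H2ac1, H2bc1 and H1f6 are shorter than 1 kb, a length at which 1.05% of other genes were marked, and H1f7 and H1f8 lie in the second quartile of promoter CpG count, where 18.6% of all genes were, so 0 of 5 is not set apart from these shares.

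**Figure D4:**
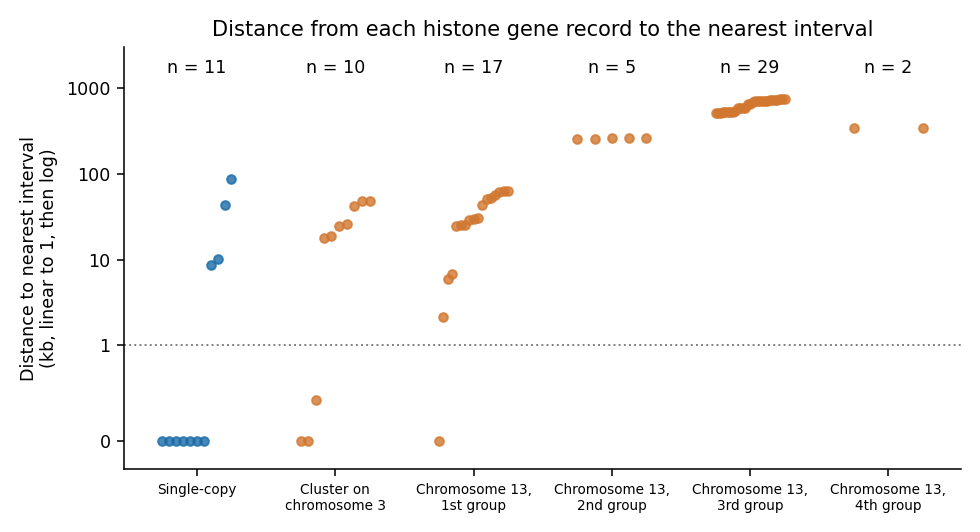
Distance in kb from each histone gene record to the nearest ARID4B interval, on an axis that is linear up to 1 kb and logarithmic above, with single-copy genes in blue and the clusters in orange. The dotted line is the 1 kb limit for a marked gene and n is the number of genes. The 29 genes of the third group on chromosome 13 all lie between 516.0 and 749.0 kb from an interval.

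Counted by length instead of by gene, the clusters held too few intervals to compare rates. Their spans add up to 411 kb and held 2 intervals, 1 for every 206 kb. The chromosome 3 cluster and the H1f5 group of chromosome 13 held 1 each, and the other groups held none. Over the genome there was 1 interval for every 392 kb between the outermost protein-coding genes of the chromosomes. The genome rate is not matched for gene density, and genes lie densely in the clusters, 63 members in these 411 kb. Hfe, an iron-regulation gene and the 1 other protein-coding gene within these spans, had no interval.

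Promoter CpG count differed between single-copy and clustered genes, and over all protein-coding genes the share marked rose with it. A promoter window was found for 68 of the 74 members, 58 clustered and 10 single-copy (H2ax, H2bc21, H2bc4, H3c1, H3c7 and H4c14 had none). The CpG count in the 300 bases had a median of 25.5 for single-copy genes and 11 for clustered genes, against 15 over the 17491 protein-coding genes with a window. Across all these genes the share marked was 2.74% in the lowest quartile of CpG count, 18.6% in the next, 42.9% in the third and 62.4% in the highest. In the sequences above, H1f10 has 40 CpG, H3f3a 39, H2az1 34, H1f0 29, H2az2 27, H3f3b 24, H1f4 22 and H1f5 15.

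Within the single-copy genes the marks followed this order, with 1 exception. All 6 marked ones with a window fell in the upper 2 quartiles, H2aj being lowest with 17, and H1f8, H1f7 and H3f3c, with 5, 6 and 9 CpG, were unmarked. The exception was H2az2, unmarked with 27. In the highest quartile 4 of 5 single-copy genes were marked, against 62.4% of all genes. In the third it was 2 of 2 against 42.9%, and in the second 0 of 3 against 18.6%. With so few genes these shares are not set apart from those of all genes of like CpG count. Clustered genes did not follow the order of CpG count. Of the 16 clustered genes in the upper 2 quartiles 0 were marked, among them H2ac18 with 41 CpG, H2ac19 with 36 and H4c1 with 27. H1f5, H2ac20 and H2ac21 were marked with 15, 9 and 9. The latter pair shares the same interval, which lay from 235 to 1283 bp after the start of H2ac20, outside its promoter window. The split by CpG count was made after the values were seen and has no test.

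**Figure D5:**
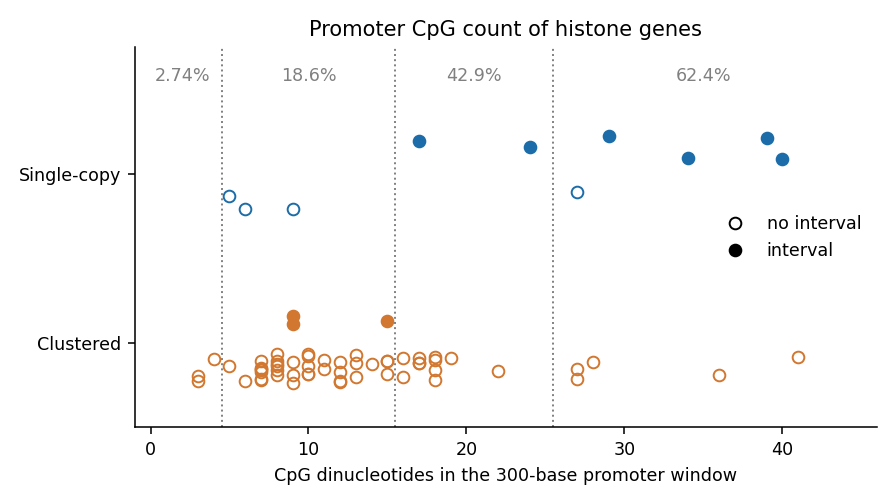
CpG dinucleotides in the promoter window of each histone gene, clustered in orange and single-copy in blue, filled where the gene has an ARID4B interval and open where it has none. Height within a row is scatter only. Dotted lines part the quartiles of all protein-coding promoters, the highest of which runs beyond the axis, and grey figures give the percent of all genes marked in each. The 6 filled single-copy points lie at 17 CpG or more and the 3 filled clustered points at 15 or fewer.

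Copies that resemble each other can lose reads, depending on how reads with several matches were treated, a step not stated in the sources used here. To describe this, each promoter was cut into words of 36 bases and compared with all other protein-coding promoters elsewhere in the genome. Words were shared by 13 of the 58 clustered promoters, from 1.13% of the words at H4c9 to 100% at H2bc23, and by 0 of the 10 single-copy promoters. H2ac18 and H2ac19 shared 69.4%, H3c14 and H3c15 80.8%, and H4c17 and H4c18 94.3%. None of the 13 was marked, and of the 45 clustered genes without a shared word 3 were. Among these 45 were 7 of the 16 clustered genes of the upper CpG quartiles (H1f2, H1f4, H2ac22, H2bc22, H3c6, H3c8 and H4c1), also unmarked. Coding sequences, in which the copies are most alike, were not compared, and the part of read mapping in the low clustered share was not tested.

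The promoter words occurred at different rates in the clustered and single-copy windows, and these shares have no test. CCAAT stood in 50 of 58 clustered windows (86.2%), 6 of 10 single-copy windows and 38.4% of all protein-coding windows, and TATAAA in 34 of 58 (58.6%), 1 of 10 and 12.9%. The octamer ATTTGCAT stood in 12 of 58 (20.7%), 1 of 10 and 1.64%, AAACACA in 9 of 58 (15.5%), 1 of 10 and 5.93%, and TTTCGCGC in 9 of 58 (15.5%), 0 of 10 and 0.475%. TTTGGCGC was found in 0 of the 68 windows and in 0.675% of all. H2A and H2B genes that lie back to back share parts of their windows, so matches there are counted for each. H1f5, marked, and H1f4, unmarked, both hold an H1 box, a CCAAT word and TATAAA. H1f0 and H1f10, with 2 of the 3 best scores, hold none of the words.

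Genes that process and deposit histones are given for comparison with the 6.35% of clustered and 63.6% of single-copy histone genes, with no test. Of 24 genes for transcription and processing of histone messages 15 (62.5%) were marked, with a median best score of 135.0. The best were Yy1, a zinc finger transcription factor gene (451.25), and Pou2f1, whose product Oct-1 binds the octamer (221.32). Ybx1 (200.95) and the cap-binding gene Ncbp1 (180.57, shared with Tstd2) came next. Npat, the coactivator of histone genes in S phase, had an interval of 78.92 in a window shared with Atm. The stem-loop binding gene Slbp had 120.19 (shared with Tmem129). The U7 particle genes had 76.48 (Lsm10) and 114.31 (Lsm11, shared with Thg1l). All these scores were below the list median of 124.98. Hinfp, an activator of H4 genes, Casp8ap2, Cpsf1, Cpsf2, Cpsf3 and Cstf2 were among the 9 without one.

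Of 34 histone chaperone and deposition genes 25 (73.5%) were marked, with a median best score of 136.83. Srcap, an ATPase that exchanges H2A.Z into nucleosomes, led with 313.67, followed by the H3.3 chaperone genes Ubn2 (286.94) and Hira (269.92, shared with Mrpl40) and by Supt16, a subunit of FACT (227.32, shared with Chd8). Daxx, which deposits H3.3 with Atrx, had 223.36, and the CAF-1 genes Chaf1a and Chaf1b, which serve replication, had 113.64 and 112.05. Asf1b, Cabin1, Atrx, Dek, Hjurp and Mcm2 were among the 9 unmarked. Both shares compare with 30.7% over all genes, and with 42.9% and 62.4% in the third and highest quartiles of promoter CpG count. Promoter CpG of the listed genes was not compared, so neither share is matched for it. Of 13 histone variant genes outside the rule 3 were marked, Macroh2a2 (296.33, shared with Gm2137), Macroh2a1 (162.02) and Cenpa, the centromeric H3 gene (72.53), while the 10 others, the X-linked H2ab1, H2ab2 and H2ab3 among them, were not.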

How the data were processed

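One list of intervals of the ARID4B ChIP library was analysed. The score of each interval is the authors' deposited value. Their file calls it a p-value, but the lowest is 70.02. The submitters' processing notes name BWA, MACS and the build mm9, with no version or setting, whereas the deposited list is named for mm10. Read on GRCm38.p6, 72.6% of intervals lay within 1 kb of an annotated RefSeq start (77.9% on chromosome 3, 82.7% on chromosome 13), against 5.43% after a shift of 5 kb, so GRCm38 was used. Near the clusters the counts were 19 of 26 intervals on chromosome 3 and 4 of 7 on chromosome 13.

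Genes came from the RefSeq table (protein-coding, chromosomes 1 to 19, X and Y). An overlap of 1 bp sufficed. Strand and starts came from the RefSeq promoter table. A gene with several promoters was given the one with most CpG for composition and the nearest for position. Input, reads and protein sequences were not used here, so the planned protein identities were left out. The overlap step was tested on simulated intervals. Members and lists were chosen with earlier results of these data known. Every marked member is named; of the other lists, the 4 best genes, up to 6 without an interval, and others of known role chosen after their values were seen. Python 3.11.15, pandas 2.3.3, NumPy 2.4.6 and SciPy 1.17.1 were used.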

Additional observations from a re-analysis of the deposited data

How the results depend on the processing

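The 11 marked histone genes, 4 clustered and 7 single-copy, kept within 1.5 times of these counts with windows of 500 bp or 5 kb, the record alone, interval midpoints, at least 50% of the interval inside the window, starts of transcription, a score of 100 or more, cluster distances of 50 and 500 kb, intervals that touch no other kind of gene (4 and 6) and, added after the data were examined, members with a promoter window only (3 of 58 and 6 of 10). With intervals above the median score alone, 7 histone genes remained, of which 1 clustered (H1f5) and 6 single-copy. H2ac20, H2ac21, H2bc21 and H2aj were lost there, and the share of all genes fell to 16.7%. The share of all genes was 29.6% for the record alone, 33.5% with 5 kb, 22.0% with a score of 100 or more and 27.8% around starts of transcription. The record alone lost H2bc21, and 5 kb added H3c11. H2ax and H2bc21 stayed marked around starts of transcription although no promoter window gave their start. That setting therefore did not use such a start for every gene. In the 8 settings that also gave a share of all genes, single-copy genes stayed above it and clustered genes below it. No paired analysis was possible because there was 1 library a group. Read depth is unknown, so a gene without an interval may have enrichment under the authors' limit.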
